A study of Mus musculus with 38 samples.

Results

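The 43 mitosis and spindle genes are the machinery with which a cell separates its copied chromosomes and divides. They were taken as a list of gene symbols, for what their proteins do and not for a measured value, and matched by mouse Ensembl gene ID to the tumor and the cell line count tables. All 43 were found in both tables, among 55487 genes, and all 43 passed the filter on low counts in every fit. By role they are 7 cyclins and mitotic kinases (Ccna2, Ccnb1, Ccnb2, Cdk1, Plk1, Aurka, Nek2), 3 subunits of the chromosomal passenger complex (Aurkb, Birc5, Incenp), 5 spindle checkpoint genes (Bub1, Bub1b, Bub3, Mad2l1, Ttk), 4 genes of anaphase control (Cdc20, Ube2c, Pttg1, Espl1), 5 kinetochore and centromere genes (Cenpa, Cenpe, Cenpf, Ndc80, Nuf2), 6 spindle motors and assembly factors (Kif11, Kif15, Kif18b, Kif2c, Kif4, Tpx2), 6 cytokinesis genes (Prc1, Kif20a, Kif23, Racgap1, Ect2, Anln), 5 condensin and topoisomerase genes (Ncapg, Ncaph, Smc2, Smc4, Top2a), and the proliferation marker Mki67 with the transcription factor Foxm1.

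RNA was sequenced from omental tumors of 2 mouse models of high-grade serous ovarian cancer (HGSOC) and from the cell lines that seed them. The cell line 60577 was grown in FVB mice and HGS2 in C57BL/6J mice, all young adult females that received the cells into the peritoneal cavity. The treated animals received 3 weekly doses of carboplatin (20 mg/kg) with paclitaxel (10 mg/kg), starting 21 days after injection of 60577 and 49 days after injection of HGS2, and the controls received vehicle. TP1 tumors were taken 1 day, TP2 tumors 7 days and TP3 tumors 21 days past the final dose. The 60577 tumors comprised 3 controls and 3 treated at TP1, 3 controls and 4 treated at TP2, and 4 treated at TP3. The HGS2 tumors comprised 3 controls and 3 treated at TP1, 4 controls and 3 treated at TP2, and 4 treated at TP3. For want of controls at TP3 the TP3 treated tumors were set against TP2 controls, and in that comparison treatment and time cannot be told apart. Each cell line in culture, untreated, had 2 libraries. Each model is 1 cell line in 1 mouse strain, so line, strain and tumor age cannot be told apart between the models, and the driver alterations of the lines are not given in the sources used here. HGS2 TP3 treated replicate 1 is missing from the tables of the study, so the fits used the other 33 tumors, and its levels are given here beside the rest.

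Paclitaxel holds microtubules in their polymerized state, so that the mitotic spindle cannot work, and carboplatin crosslinks DNA. Most of the listed genes are transcribed only from late S phase to mitosis: the DREAM complex and its relatives keep them silent in resting cells through a promoter element called the CHR, while B-Myb and FoxM1 switch them on in G2. Their summed RNA in a tissue is therefore a common measure of how much of it is dividing. In bulk tumor RNA, fewer dividing cells and less RNA per cell cannot be told apart.

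Promoter windows of the listed genes were read to show what the members share beside their role. In the RefSeq promoter table of GRCm38.p6, which covers 250 bases before to 50 bases after each start, 36 of the 43 genes had an entry. The CHR letters TTTGAA, searched on both strands, stood in 27 of the 36 (75.0%), against 20.2% of all 27025 genes with a promoter window. The CCAAT box, which NF-Y binds and which was likewise searched on both strands, also stood in 27 of the 36 (75.0%), against 41.1% of all genes, and 2 or more CCAAT boxes stood in 17 (47.2%) against 13.3%. Both motifs together were found in 23 of the 36 (63.9%), against 7.97% of all genes. A match is a description of the letters and not evidence of a bound site. Shown here are the 200 bases upstream of the RefSeq start, 5′ to 3′ on the strand of the gene, of an anaphase activator pair (Ube2c, Cdc20), of the central mitotic kinase (Cdk1), of Top2a, and of Kif15, whose RNA was not called lower in 60577 at TP1 or TP2. Capitals mark both motifs on either strand.
Ube2c (chr2:164769729-164769928, + strand): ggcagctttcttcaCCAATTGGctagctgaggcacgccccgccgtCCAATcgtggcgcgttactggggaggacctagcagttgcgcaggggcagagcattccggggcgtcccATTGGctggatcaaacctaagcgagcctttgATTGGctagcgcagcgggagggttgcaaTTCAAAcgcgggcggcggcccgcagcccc
Cdc20 (chr4:118437344-118437543, - strand): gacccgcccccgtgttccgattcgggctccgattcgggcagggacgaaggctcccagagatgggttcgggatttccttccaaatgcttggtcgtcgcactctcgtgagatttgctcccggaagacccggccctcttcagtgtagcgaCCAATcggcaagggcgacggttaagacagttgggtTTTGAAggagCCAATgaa
Cdk1 (chr10:69352913-69353112, - strand): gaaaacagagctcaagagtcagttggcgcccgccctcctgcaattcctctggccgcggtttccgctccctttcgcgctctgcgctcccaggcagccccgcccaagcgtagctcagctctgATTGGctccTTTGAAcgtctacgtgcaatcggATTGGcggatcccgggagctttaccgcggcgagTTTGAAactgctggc
Top2a (chr11:99024190-99024389, - strand): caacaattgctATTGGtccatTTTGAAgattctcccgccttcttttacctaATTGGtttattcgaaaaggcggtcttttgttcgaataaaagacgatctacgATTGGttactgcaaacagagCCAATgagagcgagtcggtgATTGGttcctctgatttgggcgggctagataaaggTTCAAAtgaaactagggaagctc
Kif15 (chr9:122950881-122951080, + strand): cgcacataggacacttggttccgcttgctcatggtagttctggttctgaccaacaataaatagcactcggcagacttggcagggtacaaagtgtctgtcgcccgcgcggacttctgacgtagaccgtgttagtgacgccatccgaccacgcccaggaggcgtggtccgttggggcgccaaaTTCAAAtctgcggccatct
These windows held 1 CHR match and 5 CCAAT matches in Ube2c, 1 and 2 in Cdc20, 2 and 2 in Cdk1, 2 and 5 in Top2a, and 1 and 0 in Kif15.

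The unit of the levels below is CPM, a gene's count scaled to a common library size, with TMM factors over all 38 libraries, and comparisons between genes use RPKM, which also divides by the length of a gene's exons. In 60577 control tumors of both times (n = 6) the highest RPKM belonged to Mki67, the antigen that marks cycling cells, at 26.9 ± 3.4 (SD), ahead of Top2a (21.4 ± 2.1), Cdc20 (20.0 ± 2.3), Smc4 (17.9 ± 2.1) and Ccnb2 (16.5 ± 1.5). Top2a and Cdc20 differed by less than their spread. The lowest belonged to the mitotic kinesin Kif15 at 0.849 ± 0.20, below the checkpoint kinase Ttk (2.02 ± 0.17) and the kinetochore gene Nuf2 (2.12 ± 0.21), which again differed by less than their spread. HGS2 control tumors (n = 7) had nearly the same order at the top, with Mki67 at 23.5 ± 11 RPKM, Smc4 at 19.4 ± 5.0 and Cdc20 at 18.9 ± 10, but with spreads wider than the gaps between these genes.

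**Figure D1:**
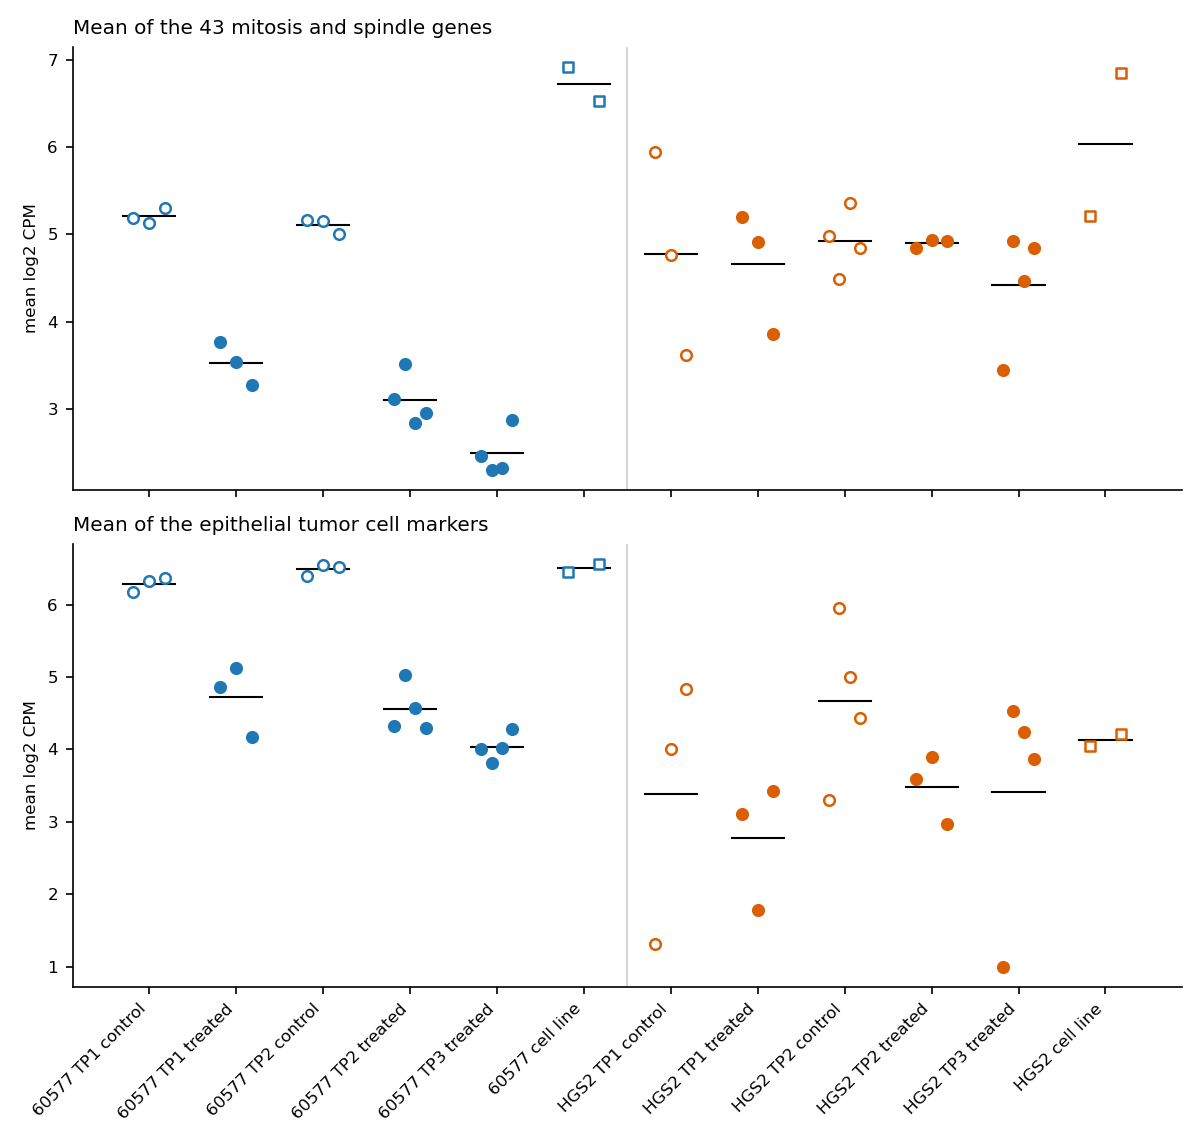
Level of the mitosis and spindle genes in every library, as the mean log2 CPM over the 43 genes (vertical axis) by group (horizontal axis); open circles are controls, filled circles treated tumors, squares cell lines, and black lines group means. In 60577 the 6 controls lay between 5.0 and 5.30 and every treated tumor at or below 3.77, whereas in HGS2 control and treated tumors overlapped at each time.

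Chemotherapy lowered nearly all of the 43 genes in 60577 tumors, and the median over the members was lower at each later time. A day after the last dose the median log2 fold change of the members was -1.69, 3.23-fold lower, against a median of -0.00 over all genes tested. At TP2 it was -2.17 (4.51-fold lower), and in TP3 tumors against TP2 controls -2.78 (6.88-fold lower). A gene was called at an adjusted p-value below 0.05 in edgeR's quasi-likelihood test, adjusted over all 16241 genes, and a change over 2-fold. At TP1, 40 of the 43 members were called lower, where 5.96% of all genes were. At TP2, 40 of 43 were called lower against 9.61% of all genes, and at TP3 41 of 43 against 10.2%. No member was called higher at any time, and all 43 estimates lay below 0 at all 3 times. Control and treated tumors did not overlap in 43, 42 and 43 members. TP2 and TP1 controls, between which 0 of all genes were called, did not overlap in 11 members. The share of all genes without overlap was not computed. In edgeR's test of treated against control tumors at the 3 times, 7027, 10272 and 9269 of the 16241 genes had an unadjusted p below 0.05. The TP2 and TP3 comparisons share the same 3 TP2 controls, so these counts are not independent of each other.

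**Figure D2:**
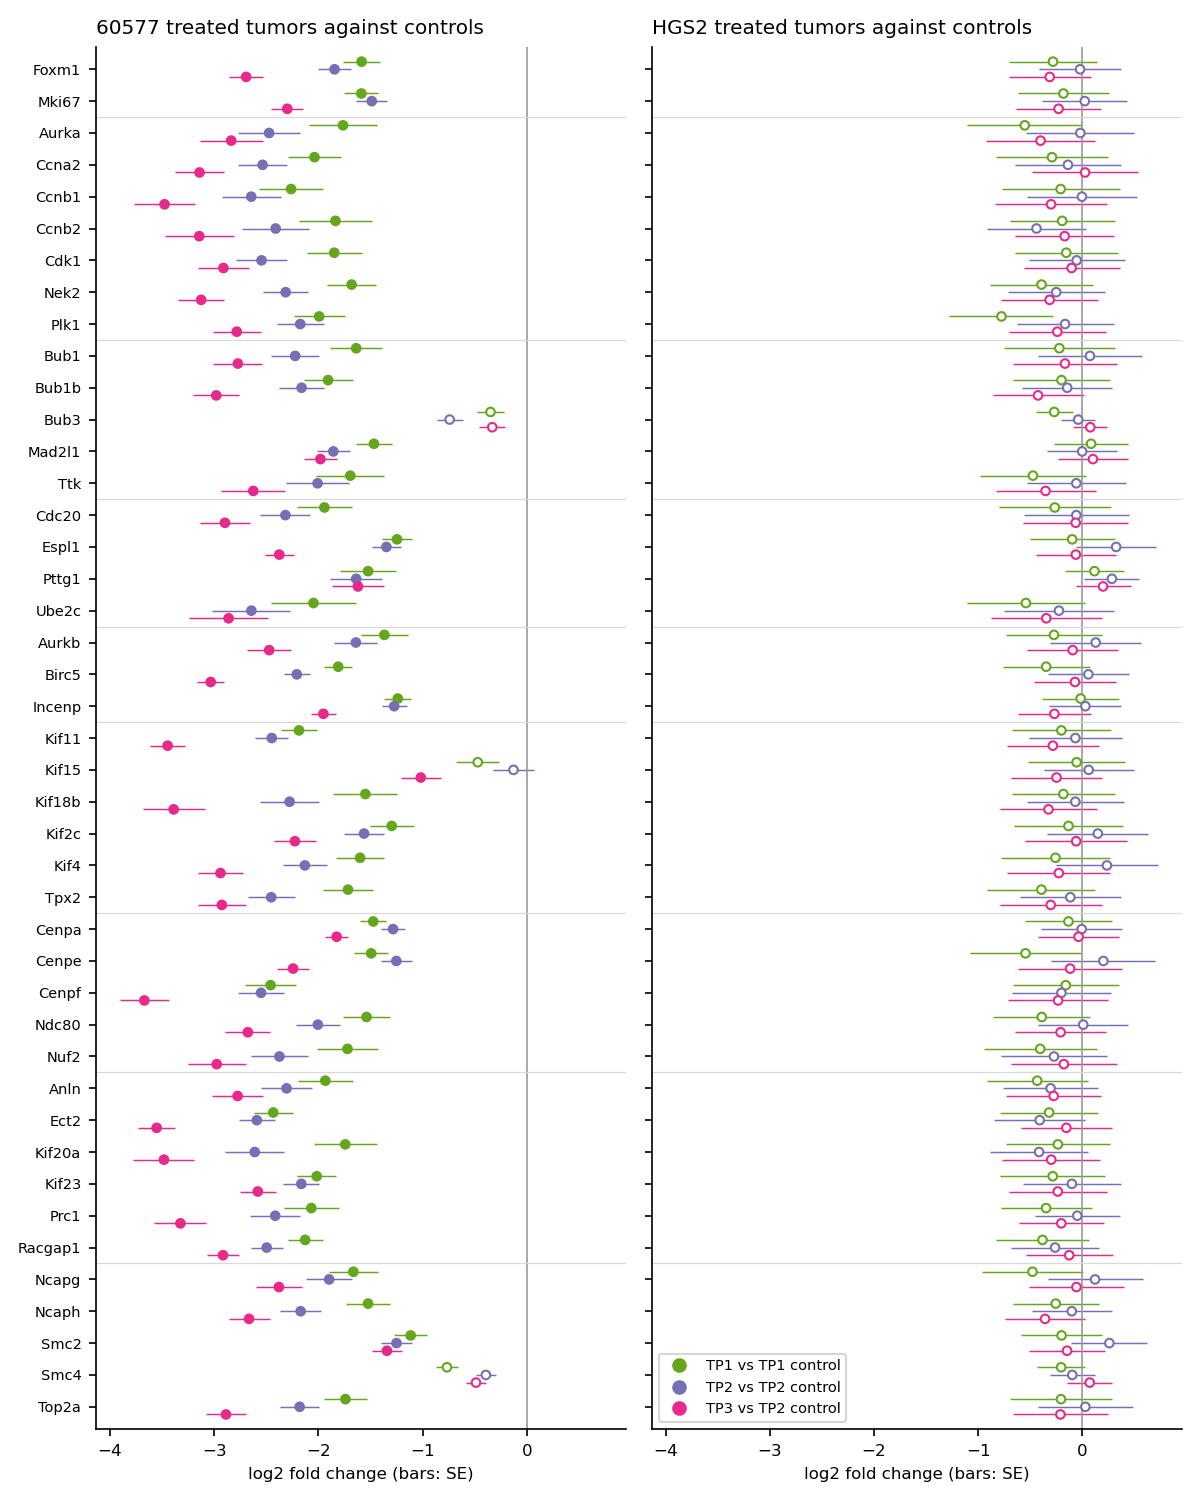
Log2 fold change of each of the 43 genes (horizontal axis, with standard error) in treated against control tumors, grouped by role, for the 60577 and HGS2 models at TP1, TP2 and TP3 (TP3 against TP2 controls); filled points are called and open points are not. In 60577 all points lay left of 0 and 40, 40 and 41 were filled, while in HGS2 the points scattered around medians of -0.26, -0.05 and -0.21 and none was filled.

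Cyclins and mitotic kinases drive entry into and passage through mitosis. All 7 were called lower at each time in 60577, with a median log2 fold change of -1.85 at TP1, -2.47 at TP2 and -3.12 at TP3. Ccnb1, the cyclin partner of Cdk1, stood at 40.1, 37.6 and 46.3 CPM in TP1 controls and at 11.7, 8.27 and 5.79 CPM in TP1 treated tumors. In TP2 controls it stood at 39.9, 42.6 and 33.2 CPM, in TP2 treated tumors at 5.57, 9.47, 5.76 and 4.11 CPM, and in TP3 treated tumors at 2.69, 3.11, 2.83 and 5.17 CPM. Every treated tumor was thus below every control, and the log2 fold changes were -2.26 ± 0.31 (SE), -2.64 ± 0.28 and -3.48 ± 0.29 (adjusted p = 9.4e-05, 6.0e-06 and 3.5e-07). Cdk1, the kinase that triggers mitosis, was at 29.1, 29.5 and 33.6 CPM in TP1 controls and 11, 8.62 and 5.91 CPM in treated tumors, a log2 fold change of -1.85 ± 0.26 (adjusted p = 0.00013). At TP2 it fell from 30.9, 33.7 and 28.8 CPM to 5.5, 7.15, 4.25 and 4.63 CPM (-2.54 ± 0.24), and in the TP3 tumors 3.62, 3.08, 3.54 and 6.28 CPM were left (-2.91 ± 0.25). Cdk1 carries both motifs in its printed promoter, each in 2 copies. Plk1, the polo-like kinase of spindle assembly and mitotic exit, fell from 18.4, 17 and 22.9 CPM to 6.66, 4.19 and 3.71 CPM at TP1 (-1.99 ± 0.25, adjusted p = 5.0e-05). It was 4.51-fold lower at TP2 and 6.88-fold lower at TP3.

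The chromosomal passenger complex corrects faulty attachments of chromosomes to the spindle, and its 3 genes were called lower at each time, with medians of -1.37, -1.64 and -2.47. Its kinase Aurkb was at 20.2, 22.7 and 24.4 CPM in TP1 controls and 8.90, 8.24 and 8.84 CPM in treated tumors, a log2 fold change of -1.37 ± 0.22 (adjusted p = 0.00037). The change was -1.64 ± 0.21 at TP2 and -2.47 ± 0.21 at TP3, where the 4 tumors held 2.58 to 4.84 CPM. Birc5, which encodes survivin, fell more than its partner Incenp, the scaffold, with TP3 values of -3.03 ± 0.13 and -1.95 ± 0.12; the difference between the genes was not tested.

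The spindle checkpoint delays anaphase until every kinetochore is attached. Of its 5 genes 4 were called lower at each time, and Bub3, which recruits the Bub1 kinases to kinetochores, was called at none. Bub1b stood at 35.3, 39.6 and 41.4 CPM in TP1 controls and 13.1, 9.72 and 8.03 CPM in treated tumors, a log2 fold change of -1.91 ± 0.24 (adjusted p = 5.0e-05). The later values were -2.16 ± 0.22 and -2.98 ± 0.22. Bub3 was at 52.8, 47.1 and 53.7 CPM in TP1 controls against 42.2, 40.0 and 38.0 CPM, and at 60.8, 56.6 and 54.2 CPM in TP2 controls against 41.8, 39.1, 27.0 and 30.3 CPM. In TP3 tumors it was at 44.8, 45.5, 44.7 and 46.4 CPM. The groups did not overlap, but the change was under 2-fold throughout: -0.35 ± 0.13 (adjusted p = 0.056), -0.74 ± 0.12 (adjusted p = 0.00019) and -0.33 ± 0.12 (adjusted p = 0.036).

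Anaphase begins when the ubiquitin ligase APC/C, with Cdc20 and the conjugating enzyme Ube2c, destroys securin (Pttg1) and sets separase (Espl1) free. All 4 genes were called lower at all 3 times. Cdc20 fell from 37.5, 34.3 and 34.7 CPM to 10.2, 9.86 and 7.53 CPM at TP1 (-1.94 ± 0.26, adjusted p = 8.9e-05). Its log2 fold change was -2.32 ± 0.24 at TP2 and -2.90 ± 0.24 at TP3. Ube2c was among the lowest members at TP2, at 21.1, 22.2 and 16.9 CPM in controls and 4.85, 4.82, 0.977 and 2.19 CPM in treated tumors (-2.64 ± 0.37, adjusted p = 5.1e-05). The 4 treated tumors spread over 0.977 to 4.85 CPM, all below the controls. Pttg1 differed in its course. It was at 11.8, 10.3 and 13.4 CPM in TP1 controls and 4.61, 4.61 and 3.09 CPM in treated tumors, at 11.2, 13.1 and 10.7 CPM in TP2 controls and 5.14, 4.46, 2.44 and 3.03 CPM in treated tumors, and at 4.23, 3.11, 2.96 and 4.84 CPM at TP3. The log2 fold changes were -1.52 ± 0.27, -1.64 ± 0.25 and -1.62 ± 0.25 (adjusted p = 0.00064, 8.6e-05 and 7.3e-05), and TP3 treated against TP2 treated tumors gave 0.02 ± 0.23 (adjusted p = 0.96).

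Kinetochores tie chromosomes to microtubules. All 5 of their genes were called lower at each time, with medians of -1.54, -2.0 and -2.68. Cenpf, a large protein of the outer kinetochore, was the lowest member of all at TP1 and TP3. It stood at 159, 165 and 199.99 CPM in TP1 controls and 40.0, 34.3 and 20.8 CPM in treated tumors, and at 141, 157 and 160.2 CPM in TP2 controls against 10.3, 10.9, 10.3 and 16.5 CPM at TP3. Its log2 fold changes were -2.46 ± 0.25 at TP1, -2.55 ± 0.22 at TP2 and -3.67 ± 0.23 at TP3 (adjusted p = 1.3e-05, 1.6e-06 and 2.9e-08). Ndc80, the microtubule contact, went from 16.1, 15.7 and 19.9 CPM to 7.53, 5.63 and 4.60 CPM at TP1 (-1.54 ± 0.23, adjusted p = 0.00018), and reached -2.68 ± 0.22 at TP3. Cenpa, the histone H3 variant that marks the centromere, was at 44.2, 42.8 and 42.0 CPM in TP1 controls against 16.9, 15.2 and 14.2 CPM. Its change was smaller, -1.47 ± 0.12, -1.28 ± 0.11 and -1.82 ± 0.11.

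Spindle motors push and shape the microtubule array. Of the 6 genes, 5 were called lower at TP1 and TP2 and 6 at TP3. Kif11, the motor that drives spindle poles apart, was at 87.5, 79.9 and 90.1 CPM in TP1 controls and 22.3, 19.7 and 14.5 CPM in treated tumors, a log2 fold change of -2.18 ± 0.17 (adjusted p = 2.2e-06). In TP2 controls it was at 68.5, 74.0 and 72.1 CPM, in TP2 treated tumors at 12.7, 17.1, 12 and 11.2 CPM, and in TP3 tumors at 6.53, 6.02, 5.66 and 7.97 CPM, 10.9-fold below the TP2 controls. Kif15 can stand in for Kif11 in keeping the spindle bipolar, and its values were different. It stood at 11.6, 10.3 and 11.4 CPM in TP1 controls and 8.06, 7.43 and 8.53 CPM in treated tumors (-0.47 ± 0.21, adjusted p = 0.093). In TP2 controls it was at 9.13, 5.84 and 7.76 CPM and in treated tumors at 8.10, 6.89, 6.25 and 6.70 CPM, the only member whose groups overlapped (-0.13 ± 0.19, adjusted p = 0.59). At TP3 it was at 4.45, 3.18, 2.64 and 4.66 CPM, which was called (-1.02 ± 0.19, adjusted p = 0.00050). Its printed promoter holds a CHR match and no CCAAT box.

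Cytokinesis genes build the midzone and the contractile ring that cut the cell apart. All 6 were called lower at each time, with medians of -2.04, -2.45 and -3.12. Ect2, the exchange factor that switches on RhoA at the cleavage plane, was at 61.2, 57.3 and 66.1 CPM in TP1 controls and 12.5, 12.4 and 9.19 CPM in treated tumors (-2.43 ± 0.19, adjusted p = 2.2e-06). At TP3 it was at 4.73, 4.90, 4.24 and 5.32 CPM, 11.7-fold below the TP2 controls at 64.3, 57.9 and 47.0 CPM. Prc1, which bundles midzone microtubules, changed by -2.07 ± 0.26, -2.41 ± 0.24 and -3.32 ± 0.25. The midzone kinesin Kif20a fell from 45.9, 45.1 and 50.2 CPM to 18.1, 12.5 and 11.5 CPM at TP1 and from 53.8, 51.7 and 43.4 CPM to 6.78, 14.0, 6.01 and 6.02 CPM at TP2 (-2.61 ± 0.28, adjusted p = 6.6e-06).

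Condensin and topoisomerase II compact and untangle chromosomes. Of the 5 genes 4 were called lower at each time. Top2a was at 189.5, 197 and 228 CPM in TP1 controls and 71.2, 59.8 and 52.6 CPM in treated tumors (-1.74 ± 0.21, adjusted p = 3.6e-05), and changed by -2.18 ± 0.19 at TP2 and -2.89 ± 0.19 at TP3. The condensin I subunit Ncapg changed by -1.66 ± 0.24, -1.90 ± 0.22 and -2.38 ± 0.22. Smc4, the ATPase subunit shared by both condensins, was at 114, 88.8 and 89.7 CPM in TP1 controls and 56.3, 60.6 and 54.8 CPM in treated tumors, and at 95, 85.3 and 85.6 CPM in TP2 controls, 71.6, 68.4, 67.2 and 65.4 CPM in TP2 treated tumors and 61.5, 58.1, 67.1 and 65.6 CPM at TP3. The groups did not overlap, but the changes were under 2-fold at -0.77 ± 0.10, -0.39 ± 0.09 and -0.49 ± 0.09 (adjusted p = 8.1e-05, 0.0026 and 0.00052). Its partner Smc2 was called at each time with smaller changes than Top2a, -1.11 ± 0.16, -1.25 ± 0.14 and -1.34 ± 0.14.

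Mki67 stood at 283, 272 and 332 CPM in TP1 controls and 104, 100.4 and 89.5 CPM in treated tumors, at 258, 238 and 242 CPM in TP2 controls, 86.7, 109, 73.4 and 85.6 CPM in TP2 treated tumors, and 52.6, 42.4, 41.5 and 63.4 CPM at TP3. These are log2 fold changes of -1.59 ± 0.16, -1.49 ± 0.15 and -2.30 ± 0.15 (adjusted p = 1.6e-05, 4.0e-06 and 4.3e-08). Foxm1, which activates many of the other members, was at 64.8, 53.1 and 60.3 CPM in TP1 controls and 22.8, 17.7 and 18.7 CPM in treated tumors (-1.58 ± 0.17, adjusted p = 2.3e-05). It changed by -1.84 ± 0.16 at TP2 and -2.69 ± 0.16 at TP3, where the 4 tumors held 7.01 to 9.35 CPM.

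**Figure D3:**
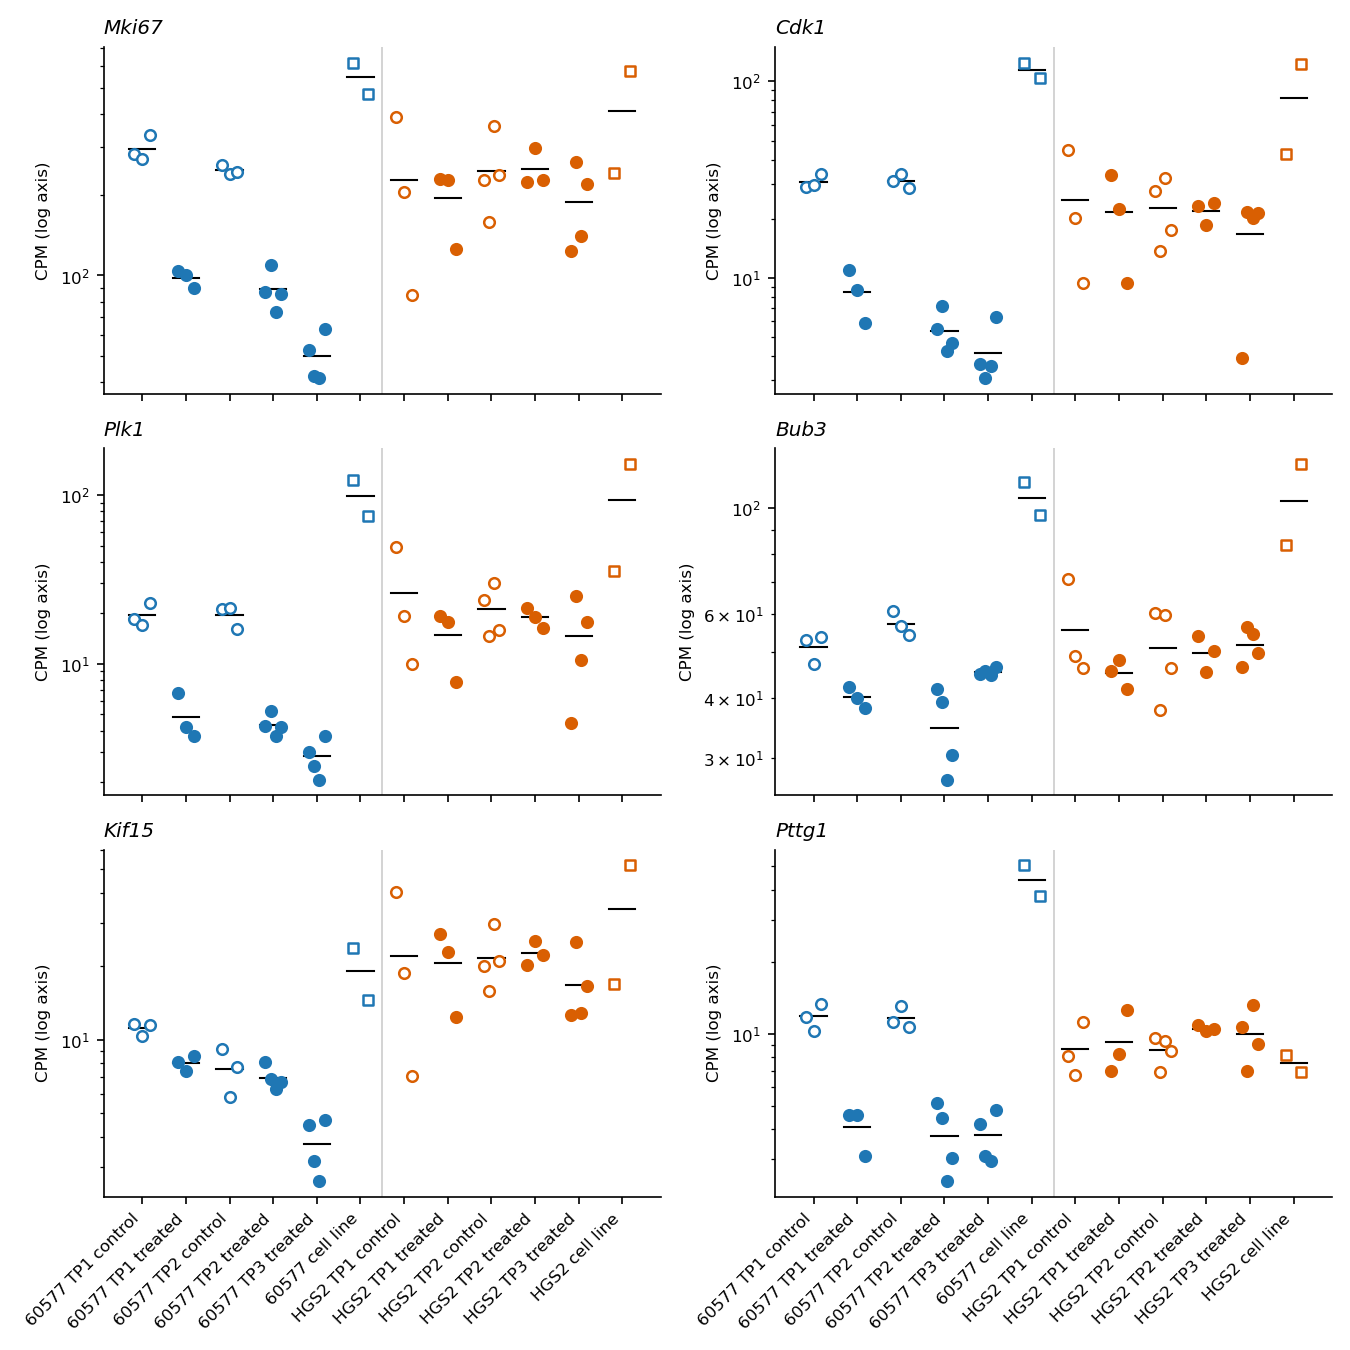
Level in CPM (vertical axis, log scale) of Mki67, Cdk1, Plk1, Bub3, Kif15 and Pttg1 in every library by group; open circles are controls, filled circles treated tumors, squares cell lines, and black lines group means. In 60577 Mki67, Cdk1 and Plk1 fell at each treated time, Bub3 stayed between 27.0 and 60.8 CPM, and Pttg1 in the HGS2 line (8.21 and 6.93 CPM) lay far below the 60577 line (50.5 and 37.5 CPM).

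Among treated 60577 tumors the members' mean log2 level was 3.53 ± 0.25 (SD, n = 3) at TP1, 3.11 ± 0.30 (n = 4) at TP2 and 2.49 ± 0.26 (n = 4) at TP3. From each time to the next few members were lower by more than 2-fold, and TP3 was not tested against TP1. TP2 against TP1 treated tumors had a median log2 fold change of -0.43, and 0 of 43 members were called lower, where 2.44% of all genes were. Without the condition on fold change 7 of 43 had an adjusted p below 0.05 in edgeR's test and were lower, against 9.86% of all genes. In the same test 20 members had an unadjusted p below 0.05, as did 6065 of all 16241 genes. Leaving out TP2 treated replicate 2 raised the called count to 3. TP3 against TP2 treated tumors had a median of -0.66, and 3 of 43 were called lower, against 4.4% of all genes. The called genes were Cenpf (-1.12 ± 0.21, adjusted p = 0.0032), the kinesin Kif18b (-1.11 ± 0.28, adjusted p = 0.010) and Espl1 (-1.03 ± 0.13, adjusted p = 0.0011), and the count ran from 0 without TP2 treated replicate 2 to 13 without TP3 treated replicate 4. It was 1 without TP3 treated replicate 3, and 6 and 5 without TP2 treated replicates 3 and 4. The share of all genes called with a tumor left out is not given here. At any fold 26 members were lower, against 18.8% of all genes, among them Kif11 (-1.0 ± 0.15), Mki67 (-0.81 ± 0.14) and Foxm1 (-0.85 ± 0.15). Bub3 alone was higher (0.41 ± 0.12, adjusted p = 0.017). For comparison, TP2 against TP1 controls had a median of -0.09, with 0 of 43 members called, where 0% of all genes were. There 4 members had an unadjusted p below 0.05 in edgeR's test, as did 1501 of all 16241 genes.

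Markers of epithelial tumor cells moved with the members in 60577. Of 15 listed genes (keratins, claudins, Epcam, Cdh1, Pax8, Wt1, Msln, Muc1, Muc16, Elf3) 12 were tested. Against 5.96%, 9.61% and 10.2% of all genes, 9, 9 and 12 of these markers were called lower at TP1, TP2 and TP3, with medians of -1.43, -2.14 and -2.52. Summed over the list they ranged from 2593 to 2962 CPM in TP1 controls and 664 to 1174 CPM in treated tumors, from 2641 to 3631 CPM in TP2 controls and 759 to 1286 CPM in treated tumors, and from 548 to 757 CPM at TP3. None of the 15 was at 0 in any 60577 library. Over the 17 tumors of 60577 the mean log2 level of the members and that of the epithelial markers had a Pearson r of 0.98 and a Spearman rho of 0.89, as a description of libraries that share treatment groups. The members' mean minus the epithelial mean was -1.08 ± 0.10 (SD, n = 3) in TP1 controls and -1.19 ± 0.35 (n = 3) in treated tumors, -1.38 ± 0.15 (n = 3) in TP2 controls and -1.44 ± 0.22 (n = 4) in treated tumors, and -1.53 ± 0.12 (n = 4) at TP3. The ranges over single tumors overlapped between treated tumors and their controls at TP1 and TP2. They also overlapped between TP3 treated tumors (-1.69 to -1.41) and TP2 controls (-1.52 to -1.23). With the epithelial mean as a covariate 0 of 43 members were called at TP1, TP2 or TP3, as were 0 of all genes in these 3 comparisons. The medians were then -0.78, -0.82 and -1.28 with median standard errors of 0.41, 0.48 and 0.59. In edgeR's test 17, 14 and 20 members had an unadjusted p below 0.05, and the share of all genes at that cutoff is not given here.

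**Figure D4:**
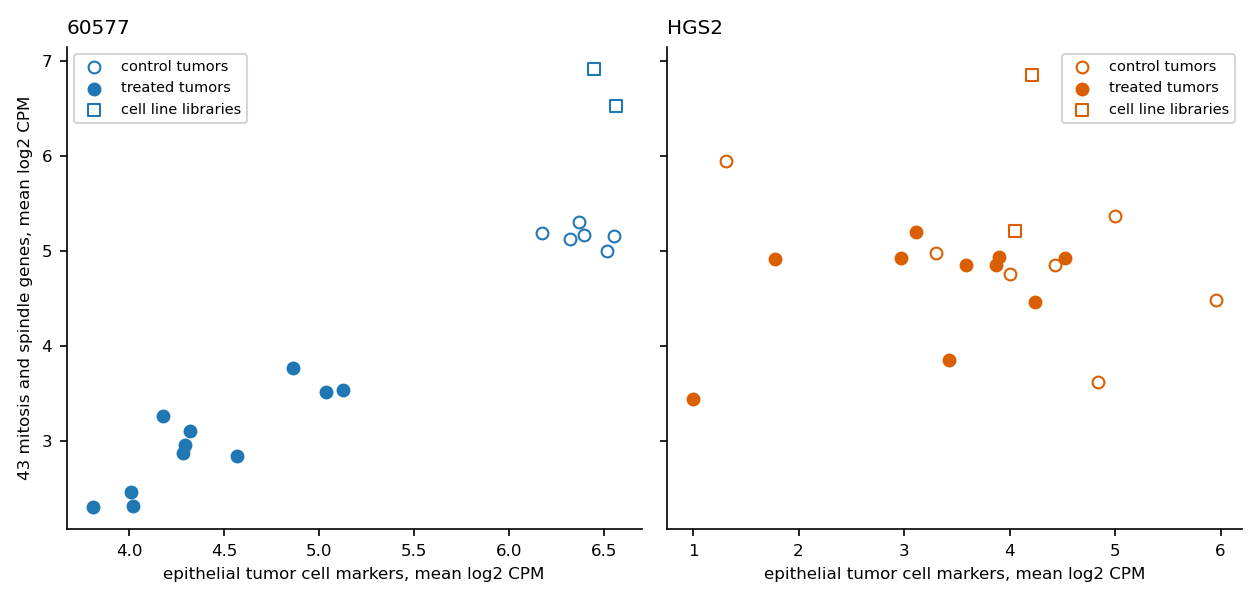
Mean log2 CPM of the 43 genes (vertical axis) against mean log2 CPM of the epithelial tumor cell markers (horizontal axis), 1 point a library, for 60577 and HGS2; open circles are controls, filled circles treated tumors and squares cell lines. The 60577 tumors lay along a line (r = 0.98, n = 17) and the HGS2 tumors did not (r = -0.07, n = 17).

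Genes listed as markers of mesothelial cells, which line the omentum, also moved with the members in 60577. The 60577 line in culture held these RNAs too, at a sum of 3608 to 3921 CPM, above every 60577 tumor. The list therefore does not tell mesothelial cells from tumor cells. Of 6 listed genes, of which 2 are on the epithelial list too, 5 were tested. Against 5.96%, 9.61% and 10.2% of all genes, 4, 1 and 4 of these markers were called lower at TP1, TP2 and TP3, with medians of -1.27, -0.88 and -1.59. Summed they ranged from 2164 to 2339 CPM in TP1 controls and 677 to 1073 CPM in treated tumors, from 1881 to 2522 CPM in TP2 controls and 844 to 1328 CPM in treated tumors, and from 584 to 979 CPM at TP3, without overlap between treated tumors and controls, and none was at 0 in any 60577 tumor. Of 10 acinar markers of the pancreas 0, 10 and 0 were called lower, and their sum was 11.1 to 1963 CPM in TP2 controls and 7.81 to 32.5 CPM in treated tumors. Several other cell types had markers that were higher, where 9.65%, 14.8% and 14.2% of all genes were called higher at TP1, TP2 and TP3. Of 9 adipocyte markers tested (10 listed) 6, 7 and 9 were called higher at TP1, TP2 and TP3, and their summed level was 85.7 to 95.8 CPM in TP2 controls and 2371 to 3173 CPM at TP3. Of 9 T cell markers 4, 8 and 9 were called higher, and of 8 B cell markers 0, 8 and 8. Of 10 fibroblast markers 6, 3 and 6 were called higher, and of 10 myeloid markers 7, 2 and 2, with 3 and 2 called lower at TP2 and TP3. Of 6 plasma cell markers tested 0, 1 and 3 were called higher and 0, 2 and 1 lower. The part of these cell types in the lower share of the members' RNA was not tested. The share of 7SL RNA in the counts also moved with treatment, at 3.59% to 4.91% in TP1 controls and 7.87% to 15.4% in treated tumors, without overlap, at 2.91% to 14.1% in TP2 controls and 9.38% to 26.5% in treated tumors, and at 1.93% to 5.89% at TP3. With that share as a covariate, an alternative chosen after seeing the data, the called counts at TP1, TP2 and TP3 stayed within 1.5 times those given above.

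Other genes of the cell division pathway were counted from lists by function, which hold none of the 43. At TP1, TP2 and TP3 in 60577, 22, 22 and 25 of 32 other kinetochore and centromere genes were called lower, and 22, 21 and 22 of 25 other spindle and cytokinesis genes, against the 5.96%, 9.61% and 10.2% of all genes. The lowest at TP1 were Sgo1, the protector of centromeric cohesion (-2.51 ± 0.26), and Aspm, the spindle pole protein (-2.35 ± 0.20). At TP3 they were Cep55, which recruits the abscission machinery (-3.84 ± 0.29), and Troap (-3.56 ± 0.31). Numa1, which anchors microtubules at the poles, had 0.02 ± 0.12 and 0.12 ± 0.11 and was not called. Of 36 DNA replication genes 30, 32 and 33 were called lower, led by the helicase subunit Mcm6 (-1.92 ± 0.20, -2.65 ± 0.19 and -2.98 ± 0.19). Of 21 mitotic entry regulators and upstream transcription factors 11, 12 and 13 were called lower, with the phosphatase Cdc25c at -2.43 ± 0.38 at TP1 and the DREAM subunit Lin37 at 0.00 ± 0.15. Of 21 APC/C, cohesin and further condensin subunits 3, 5 and 5 were called lower, with medians of -0.36, -0.34 and -0.37. Those called included Ncapd2 of condensin (-1.51 ± 0.14 at TP1) and Cdca5, or sororin (-1.37 ± 0.26 at TP1).

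Of 10 cell cycle inhibitors and pocket proteins, Cdkn1a, the p21 inhibitor that p53 and other stress signals induce, was called higher at TP1 (3.49 ± 0.66, adjusted p = 0.0010), and Cdkn1c (p57) was called lower (-2.57 ± 0.29, adjusted p = 2.7e-05). At TP2 and TP3 3 of 10 were called lower, against 9.61% and 10.2% of all genes, and 0 higher, against 14.8% and 14.2%.

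In HGS2 tumors no member was called at any time. Treated against control tumors had medians of -0.26 at TP1, -0.05 at TP2 and -0.21 at TP3, with 0 of 43 members called, 0 at an unadjusted p below 0.05, and 0% of all 16241 genes called in each of these 3 comparisons. At an unadjusted p below 0.05, 413, 1233 and 406 of all genes passed. The DESeq2 Wald test, limma-voom and the other alternatives tried also called 0 members. The standard errors of the members had medians of 0.49, 0.46 and 0.46, against 0.23, 0.21 and 0.22 in 60577, so that a change of 1 on the log2 scale was close to 2 standard errors of a typical member and may not have been detectable.

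The spread within groups differed by time. The median SD of the members' log2 levels was 1.25 in HGS2 TP1 controls and 0.71 in TP1 treated tumors, against 0.12 and 0.28 in 60577. At TP2 it was 0.40 in HGS2 controls and 0.14 in treated tumors, against 0.12 and 0.36 in 60577. In TP3 treated tumors it was 0.33 in HGS2 without replicate 1, against 0.30 in 60577. With replicate 1 the members' mean log2 level had an SD of 0.68 over the 4 HGS2 TP3 tumors, against 0.26 in 60577. The errors of each model come from a fit over all its groups and thus hold the TP1 spread at the later times too. Cdk1 was at 44.9, 20.2 and 9.40 CPM in the 3 TP1 controls of HGS2 and at 33.4, 22.4 and 9.45 CPM in the TP1 treated tumors, so that the treated tumors lay within the range of the controls (-0.16 ± 0.49). At TP2 it was at 27.7, 13.6, 32.3 and 17.6 CPM in controls and 23.2, 18.6 and 24 CPM in treated tumors (-0.06 ± 0.46). At TP3 it was at 21.6, 20.1 and 21.3 CPM, and at 3.89 CPM in replicate 1, which was outside the fits.

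The same held for other roles. Mki67 stood at 388, 205 and 84.5 CPM in TP1 controls and 229, 227 and 126 CPM in treated tumors (-0.18 ± 0.44), and at 226, 159, 359.7 and 236 CPM in TP2 controls against 222, 297 and 227 CPM (0.02 ± 0.41). Plk1 had the lowest estimate at TP1, with 49.5, 19 and 10 CPM in controls and 19.2, 17.6 and 7.81 CPM in treated tumors (-0.78 ± 0.50, adjusted p = 1.0). The 3 lowest estimates at TP2 were those of Ccnb2 (-0.44 ± 0.48), Kif20a (-0.42 ± 0.47) and Ect2 (-0.41 ± 0.44). Espl1 (0.32 ± 0.38), Pttg1 (0.28 ± 0.26) and Smc2 (0.26 ± 0.37) were the highest. Bub3, the member with the narrowest spread, had -0.27 ± 0.18, -0.04 ± 0.16 and 0.08 ± 0.16. The median of the members at TP1 rested on single tumors: without control replicate 1, which held the highest levels, it was 0.50, and without control replicate 3, which held the lowest, it was -0.68 with 5 members at an unadjusted p below 0.05.

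No difference between times was detected in HGS2. TP2 against TP1 treated, TP3 against TP2 treated and TP2 against TP1 control tumors had medians of 0.12, -0.18 and -0.09, with 0 of 43 members and 0% of all genes called in each, and 0 members at an unadjusted p below 0.05. All genes at an unadjusted p below 0.05 numbered 152, 1690 and 569. Of the 12 epithelial markers tested 0 were called in HGS2, with medians of -1.33, -1.72 and -0.69 at TP1, TP2 and TP3. Their summed level ran from 57.6 to 819 CPM in TP1 controls and from 732 to 1380 CPM in TP2 controls, and 4 of the 15 were at 0 in at least 1 tumor. Over the 17 HGS2 tumors the members' mean and the epithelial mean had a Pearson r of -0.07 and a Spearman rho of -0.17. Acinar cell markers of the pancreas summed to between 10.2 and 159958 CPM over HGS2 control tumors, and their part in the spread of the members was not tested.

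Whether HGS2 and 60577 responded differently was tested as an interaction. The HGS2 minus the 60577 log2 fold change of the members had a median of 1.33 at TP1, 2.05 at TP2 and 2.51 at TP3, and all 43 estimates lay above 0 at each time. At TP1 3 of 43 members were called higher, against 0.449% of all genes: Cenpf (2.27 ± 0.60, adjusted p = 0.048), Ect2 (2.09 ± 0.53, adjusted p = 0.038) and Pttg1 (1.62 ± 0.39, adjusted p = 0.031). This count moved with the HGS2 TP1 tumors, to 40 without control replicate 1, to 12 without treated replicate 3, and to 1 without control replicate 3 or treated replicate 1. It was 0 without 60577 TP1 control replicate 1 or 3 or treated replicate 1 or 3, and 1 without control replicate 2 or treated replicate 2. With the DESeq2 Wald test it was 11 and with no filter 0. The share of all genes called under these alternatives is not given here. At TP2 38 of 43 were called higher against 3.68% of all genes, and the count fell to 20 without 60577 TP2 control replicate 2 and to 10 with the 7SL covariate. At TP3 40 of 43 were called higher against 5.87% of all genes. Ccnb1 had an interaction of 2.02 ± 0.68, 2.63 ± 0.63 and 3.17 ± 0.64 at the 3 times (adjusted p = 0.11, 0.013 and 0.0017). Cdk1 had 1.66 ± 0.59, 2.48 ± 0.55 and 2.80 ± 0.55 (adjusted p = 0.12, 0.0086 and 0.0014), and Mki67 1.38 ± 0.49, 1.5 ± 0.45 and 2.07 ± 0.45 (adjusted p = 0.12, 0.037 and 0.0034). Bub3, Smc4 and Kif15, which changed least in 60577, were not called at any time. With the epithelial covariate the called counts were 23, 40 and 41, where 428, 1779 and 2376 of all 16241 genes were called in either direction. The epithelial mean differed between the lines in culture, at 4.13 log2 CPM in HGS2 and 6.50 in 60577. This covariate is thus not a like measure of tumor cells in both models.

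**Figure D5:**
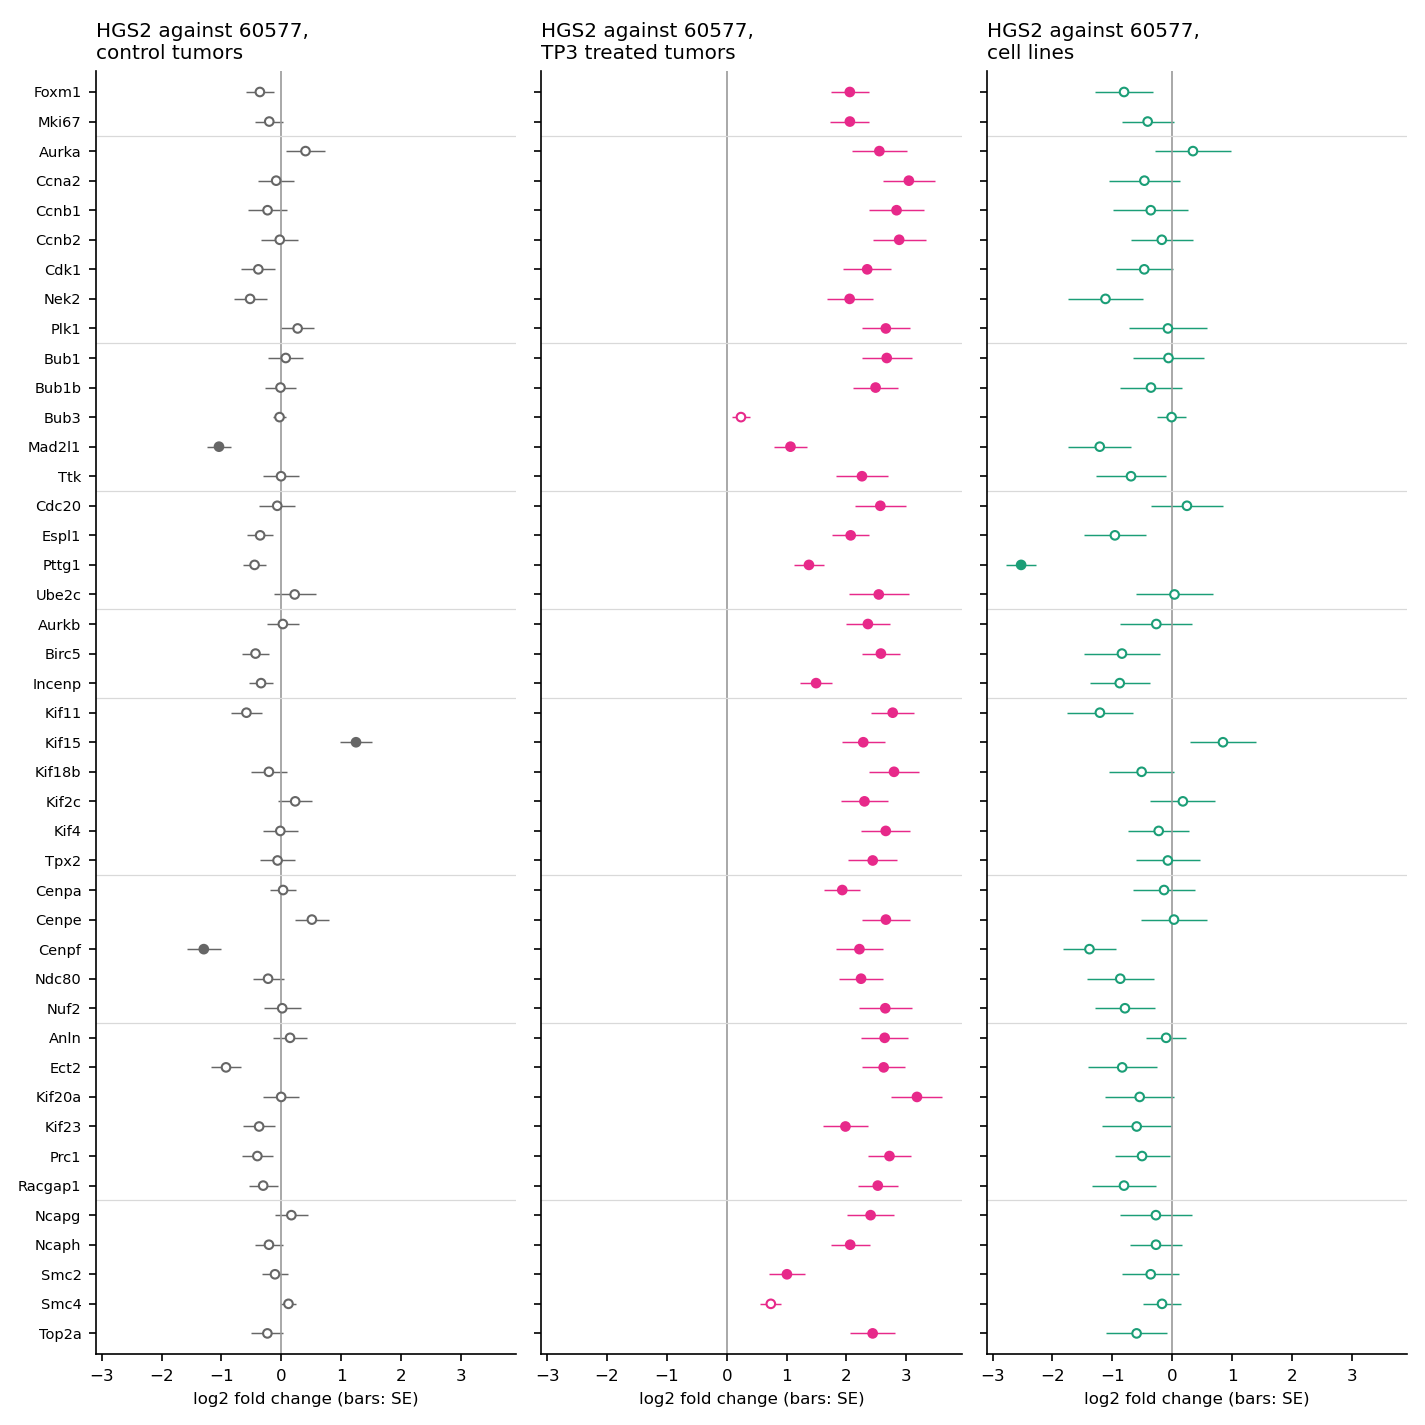
Log2 difference between HGS2 and 60577 for each of the 43 genes (horizontal axis, with standard error), grouped by role, in control tumors, TP3 treated tumors and cell lines; filled points are called and open points are not. Control tumors scattered around -0.09, TP3 treated tumors lay above 0 for all 43 genes, and in cell lines Pttg1 (-2.52) was the only filled point.

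Vehicle-treated tumors of the models had similar medians of these genes. HGS2 against 60577 controls, over both times, had a median of -0.09, and 2 of 43 members were called lower (8.81% of all genes were) and 1 higher (13.2% of all genes were). Cenpf was at 19.5 to 126 CPM (median 63.7) in the 7 HGS2 controls and 141 to 199.99 CPM in the 6 controls of 60577 (-1.29 ± 0.29, adjusted p = 0.00056). Mad2l1, the checkpoint protein that binds Cdc20, ran from 9.35 to 29.7 CPM in HGS2 controls and from 36.5 to 46.7 CPM in 60577 controls, without overlap (-1.04 ± 0.20, adjusted p = 0.00012). Kif15 was higher, at 7.11 to 40.3 CPM against 5.84 to 11.6 CPM (1.25 ± 0.26, adjusted p = 0.00034). Ect2 (-0.92 ± 0.25, adjusted p = 0.0036) and Pttg1 (-0.45 ± 0.19, adjusted p = 0.048) passed the p-value and not the fold condition. Cdk1 (-0.38 ± 0.28, adjusted p = 0.26) and Mki67 (-0.20 ± 0.24, adjusted p = 0.50) did not pass. Epithelial markers were lower in HGS2 controls (6 of 12 called lower, 1 higher) and fibroblast markers higher (8 of 10). The lines in culture differed likewise. Epithelial markers summed to 2282 to 2401 CPM in the HGS2 line and 5785 to 6265 CPM in the 60577 line. Fibroblast markers summed to 15622 to 33148 CPM and 1091 to 2322 CPM. These lists thus do not measure cell content between the models. With the epithelial covariate 16 members were called lower, with a median of -1.06, where 2941 of all 16241 genes were called in either direction.

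Treated tumors of the models stood far apart at TP3. HGS2 against 60577 TP3 treated tumors had a median of 2.44 (5.42-fold higher), 41 of 43 members were called higher, against 8.65% of all genes, and the groups in the fit overlapped in none of the 43. With HGS2 replicate 1, which was outside the fit, they overlapped in 7. The share of all genes without overlap was not computed. In edgeR's test 6663 of all 16241 genes had an unadjusted p below 0.05. Kif20a was at 46.3, 34.6 and 39.4 CPM in HGS2 and 4.20, 3.57, 3.44 and 6.50 CPM in 60577 (3.18 ± 0.43, adjusted p = 4.2e-06). Ccna2, the cyclin of S phase and G2, was at 49.8, 39.6 and 56.0 CPM against 5.45, 4.57, 5.72 and 7.76 CPM (3.04 ± 0.43, adjusted p = 9.0e-06). In HGS2 replicate 1, outside the fits, Kif20a was at 10.4 CPM and Ccna2 at 7.48 CPM, the latter within the range of the 60577 tumors. The smallest differences were those of Bub3 (0.24 ± 0.15, adjusted p = 0.24), Smc4 (0.74 ± 0.17, adjusted p = 0.0020) and Smc2 (1.01 ± 0.29, adjusted p = 0.011).

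In culture, where there are no stromal cells, 1 of 43 members was called between the lines, against 8.38% of all 13742 genes tested in that direction. Securin, Pttg1, was at 8.21 and 6.93 CPM in the HGS2 line and 50.5 and 37.5 CPM in the 60577 line, a log2 difference of -2.52 ± 0.25 (adjusted p = 0.0054). HGS2 tumors held 6.76 to 13.2 CPM, and Pttg1 was not called between HGS2 controls and the HGS2 line (0.18 ± 0.23, adjusted p = 0.56). The median member difference between the lines was -0.41, with Kif15 again highest at 0.85 ± 0.55 and Cenpf (-1.38 ± 0.44) and Mad2l1 (-1.21 ± 0.53) lowest after Pttg1. The 2 HGS2 line libraries stood apart: the members' mean log2 level was 5.21 in replicate 1 and 6.85 in replicate 2, against 6.91 and 6.53 in the 60577 line. With 1 HGS2 library left out the spread comes from the 60577 line alone, and the lone HGS2 library is assumed to vary like those. The called count changed with the HGS2 library left out, and counts from 1 library in a group are not given here. Pttg1 was low in both libraries, whereas Cdk1 was at 42.7 and 123 CPM and Mki67 at 241 and 578 CPM.

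Control tumors held less of these RNAs than their lines in culture, though in HGS2 the ranges overlapped. In 60577, 41 of 43 members were called lower in control tumors, against 9.51% of all 15808 genes tested, with a median of -1.67 (3.19-fold lower). Plk1 had the largest difference, at 16.1 to 22.9 CPM in the 6 controls and 123 and 74.8 CPM in the line (-2.39 ± 0.18, adjusted p = 1.7e-05). Bub3 (-1.0 ± 0.10) and Cenpf (-0.99 ± 0.12) fell just short of the fold condition. In HGS2 17 of 43 were called lower, against 7.04% of all 15332 genes, with a median of -1.30 and Plk1 again lowest (-2.03 ± 0.55, adjusted p = 0.015). The members' mean log2 level was 3.62 to 5.94 in HGS2 TP1 controls and 4.49 to 5.36 in TP2 controls. In the HGS2 line libraries it was 5.21 and 6.85. With 1 line library left out the other is assumed to vary like the tumors. The called count changed with the line library left out, and counts from 1 line library are not given here. Leaving out a tumor gave 31 without TP1 control replicate 1, 8 without TP1 control replicate 2, and 11 and 9 without TP2 control replicates 2 and 4. A correction for length and GC content gave 39. The share of all genes called under these alternatives is not given here. Tumor and line libraries were deposited as separate sets, and a difference between the sets cannot be told apart from that of growth condition.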

How the data were processed

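Rounded RSEM counts of 34 tumors and 4 cell line libraries were analysed. The deposited values are expected counts per gene that the authors estimated with RSEM after trimming with Trim Galore 0.6.5 and mapping with STAR 2.7.0f to GRCm38 (submitters' processing notes), without filter or normalization. The study's own later steps, a correction for length and GC content among them, are not in these values. Libraries were depleted of rRNA. No column lacked a sample.

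The low-count filter asked for 1 CPM or more in 25% or more of the libraries and left 16241 genes in tumors and 13742 in cell lines. Counts were scaled by the TMM method, and the test was that of edgeR 4.0.16 (two-sided quasi-likelihood test, Benjamini-Hochberg adjustment over all genes kept) in R 4.3.3. All groups of a model entered its fit, and both models entered the comparisons between models. The SE is the absolute log2 fold change divided by the square root of F. Symbols and exon lengths came from GENCODE M21, promoters from RefSeq. Total counts were 17839641 to 49299421 in tumors and 31633099 to 42461989 in cell lines. Counting error can still matter for members at few CPM, such as Bub1 at 1.66 to 2.13 CPM in 60577 TP3 treated tumors. Replicates are separate samples by their labels, which do not name the mouse. The study describes its tumor replicates as mice and plots its RNA-based tumor score with 1 point per mouse. In 44 pairs of replicates counts differed beyond counting error (chi-square per degree of freedom 9.38 to 713), so none was a copy.

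The members and lists were chosen with earlier results of these data known. Tests are named for 17 members set by role, for the 3 highest and 3 lowest members of a treatment, model or culture comparison, and for genes with another pattern (Ube2c, Kif20a, Birc5, Incenp and others), which were chosen after their values were seen. Of a list the 2 highest and 2 lowest genes could be named. Exons of 2 members (Foxm1, Top2a) overlap a gene on the same strand, 9 overlap an opposite-strand gene, and Ccnb1, Ccnb2 and Kif4 have named pseudogenes, so their counts are less certain.

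The alternatives were DESeq2 1.42.0 (size factors, Wald test), limma 3.58.1 (voom), no filter, an offset for length and GC content, a replicate block, the epithelial mean as a covariate, other sets of samples in the fit and, for levels, a prior count of 0.5. The 7SL covariate and the crossed block were added after seeing the data. Scripts were tested on simulated data. Replicate numbers did not pair the samples: same-numbered tumors had a median correlation of deviations of -0.04 in 60577, with 7 of 31 over 0.1, and -0.08 in HGS2, with 9 of 27.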

Additional observations from a re-analysis of the deposited data

Results flagged for a closer look

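Cdk1 stood at 3.88568 CPM in HGS2 TP3 treated replicate 1, while the other 3 tumors of that group lay at 20.1 to 21.6 CPM, a gap that exceeds Dixon's 95% limit for 4 samples. Of 172 such tests over members and groups of 4 samples, 9 (5.23%) passed the limit, and chance passes about 1 in 20. Of the 9, 5 were the lowest value in this tumor (Birc5, Bub1, Ccnb2, Cdk1 and Tpx2), which was outside the fits, and the other 4 were Bub1, Cenpe and Cenpf in 60577 TP3 treated tumors and Kif20a in 60577 TP2 treated tumors.

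By the interaction test of edgeR, the response to treatment differed between HGS2 and 60577 in 3 members at TP1, 38 at TP2 and 40 at TP3, each less negative or more positive in HGS2. The 3 comparisons share controls between TP2 and TP3.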

How the results depend on the processing

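The members called lower in 60577 at TP1, TP2 and TP3 kept counts of 40, 40 and 40 to 41 whichever tumor was left out, and in treated against control tumors and between times 0 members were called in HGS2 under every alternative. The other counts are given per comparison. With 1 tumor left out the share of all genes called is not set beside them, so they show only how far a count moved. With the epithelial mean as a covariate 0 members and 0 of all genes were called in 60577 at TP1, TP2 and TP3. Between TP3 and TP2 treated tumors 0 members were called, where 1321 of all genes were. There 12 members had an adjusted p below 0.05 in edgeR's test at any fold. This covariate gave 23 members in the TP1 interaction, where 428 of all genes were called, and 16 between control tumors, where 2941 were. TP2 against TP1 treated 60577 tumors had 7 at any fold and 0 to 3 with 1 tumor left out. TP3 against TP2 treated tumors had 1 with the 7SL covariate (chosen after seeing the data), 27 at any fold and 0 to 13 with 1 tumor left out. The TP1 interaction had 5 with DESeq2 size factors and 5 with limma-voom, 11 with the DESeq2 Wald test, 0 with no filter, 1 with all 34 tumors and 0 to 40 with 1 tumor left out. The TP2 interaction had 10 with the 7SL covariate and 20 to 39 with 1 tumor left out. Control tumors of the models had 5 at any fold. The cell lines had 5 with no filter, 2 with the DESeq2 Wald test and 1 to 35 with 1 library left out, where the line with 1 library is assumed to vary like the other. HGS2 controls against their line had 9 with limma-voom, 39 with the length and GC offset and up to 31 with 1 tumor left out. The causes were not tested. Of the values of single named members 6515 kept their side of the threshold and 385 others changed sign without being called, 124 became called and 161 lost the call, and no called value reversed.

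The replicate numbers do not pair the samples, and with the replicate block 2 members were called between the cell lines, against 1 without it, and no other count moved by over 1.5 times. The crossed pairing of the cell lines, also chosen after seeing the data, gave 2 called members.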

Other observations

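Members with and without a CHR match had similar medians in 60577. The 27 members with a CHR match had median log2 fold changes of -1.76, -2.17 and -2.84 at TP1, TP2 and TP3, and the 9 without one in their window -1.64, -2.21 and -2.77. This is a description, and the difference was not tested.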
